A study of Homo sapiens with 4 samples.

Results

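Axon guidance genes encode secreted or membrane-bound cues and the receptors that read them. Semaphorins act through plexins, with neuropilins as coreceptors for most of the secreted semaphorins. Ephrins act through Eph receptor tyrosine kinases on neighbouring cells, netrins through DCC, neogenin and the UNC5 receptors, and SLIT proteins through ROBO receptors. The same molecules steer cell contact, migration and vessel growth outside the nervous system, and several are studied in carcinomas. The genes described here are the rows of the deposited table whose symbol belongs to these families, 83 of 28973 rows. They comprise 35 ligand genes, 33 receptor genes and 15 other rows that the name pattern takes in, namely 12 antisense noncoding genes, the readthrough gene EFNA4-EFNA3, and UNC50 and UNC5CL, which are not netrin receptors. Members were taken by symbol alone, but with earlier results of these data known.

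RNA was sequenced in 4 libraries of TOV-112D, a human cell line grown from an ovarian carcinoma. Per the titles and treatment labels, 2 came from cells given bovine serum albumin (BSA) and 2 from cells given palmitic acid (PA), a saturated fatty acid, with 200 µM and 24 h stated for each. Whether replicates were grown as separate cultures is not stated in the labels, and the p-values below reflect the spread of these 4 libraries alone, which may be technical. A fall in the number of cells that express a gene and less RNA per cell cannot be told apart in bulk RNA.

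The labels of the PA libraries are in conflict: their description names an SPTLC2 knockdown, and the treatment protocol also mentions a short hairpin against ZDHHC15. SPTLC2, a subunit gene of serine palmitoyltransferase, had 1524 and 1080 counts in BSA and 2194 and 1740 in the libraries labelled PA. ZDHHC15, a palmitoyltransferase gene, had 291 and 225 counts in BSA and 190083 and 167798 in the libraries labelled PA. SPTLC2 was thus not lower in the libraries labelled PA, and ZDHHC15 was far higher (log2 fold change 9.69). Every direction below is drawn from libraries so labelled, in which PA treatment and the ZDHHC15 difference cannot be told apart. Total counts ran from 23722074 to 31695944 per library. The BSA libraries also differed from each other far more than those labelled PA did (SD over genes of the log2 ratio between replicates 1.00 against 0.41), in a way that followed GC content. When genes were cut into 10 equal bins of GC content, BSA replicate 2 stood at a median log2 ratio of -1.45 to BSA replicate 1 in the bin of lowest GC and of 0.39 in the bin of highest GC. The cytokeratin genes KRT8 and KRT18 and the mesenchymal filament gene VIM were abundant in all 4 libraries, while the epithelial genes EPCAM, CDH1 and KRT19 and the ovarian genes WT1 and WFDC2 stood at 0.416 FPKM or less. Of the 13 genes of that ovarian epithelial list, 10 were tested. At an unadjusted edgeR p under 0.05, 4 were higher and 0 lower in the libraries labelled PA (13.1% and 11.2% of all genes tested). These were KRT8, CDH2, MUC16 and the mucin gene MUC1, which had 31.9 and 40.6 FPKM in BSA and 103 and 95.6 in the libraries labelled PA (log2 fold change 1.52). Over the list, summed FPKM was 471 and 542 in BSA and 608 and 676 in the libraries labelled PA, and its part in the guidance genes' differences was not tested.

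Levels are given below as the deposited FPKM (fragments per gene length and library size), in which genes of unlike length can be compared with each other. Differences are log2 fold changes from the read counts, libraries labelled PA over BSA, with a standard error (SE) and a Benjamini-Hochberg adjusted p from edgeR's quasi-likelihood test over 17449 genes. A gene is called expressed at a mean of at least 1 FPKM over the 4 libraries and low from 0.1 to 1 FPKM. By this measure 28 of the 68 ligand and receptor genes were expressed (17 of 35 ligands and 11 of 33 receptors), 20 were low and 20 lay under 0.1 FPKM. EPHA3, EPHB6 and UNC5D had no count in any library.

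The most abundant members were EFNA1, EPHA2, PLXNB2, SEMA3B and PLXND1. In the libraries labelled PA the levels of EPHA2, PLXNB2, SEMA3B, UNC5B, NTN1, SEMA6B, SEMA7A and EFNB1 were 2.95 to 7.28 times those in BSA, while SEMA4G and NTN3 stood lower. No gene passed the threshold: the edgeR test called 0 of 17449 genes at an adjusted p under 0.05 (0% of genes tested). Of the 83 guidance rows 58 were tested in this fit, so 0 of 58 were called, with 0.0589 the smallest adjusted p. Fits with another filter or set of libraries tested other numbers of them. Even ZDHHC15, with its log2 fold change of 9.69, did not pass in this fit (edgeR adjusted p = 0.0544, the smallest value over all genes). By the looser rule of an unadjusted p under 0.05, 17 of the 28 expressed ligand and receptor genes were higher and 1 lower in the libraries labelled PA. Among all expressed genes 14.2% were higher and 9.49% lower by that rule (23.6% in either direction). Over the whole table of 17449 genes tested, 13.1% were higher and 11.2% lower (24.3% in either direction), and the groups did not overlap in 28.9% upward and 29.1% downward. Both libraries labelled PA lay above both BSA libraries for 25 of the 28 and below for 1, against 31.1% and 26.9% of all expressed genes. All expressed genes had a median log2 fold change of -0.06 and all genes tested one of -0.12. For the 28 the median was 1.03. It was 1.12 without BSA replicate 1, 1.005 without BSA replicate 2 and 0.80 after each library was corrected for GC content and transcript length (all genes 0.02, -0.03 and -0.04).

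That last value bears on these genes because they are GC-rich. The 28 expressed ligand and receptor genes had a median transcript GC content of 60.6%, against 49.4% for all expressed genes, and 22 of them fell in the 3 highest of the 10 GC bins. Over all genes the median log2 fold change in those bins was 0.13, 0.16 and 0.05, and it was -0.81 in the lowest bin. The share of genes higher at an unadjusted edgeR p under 0.05 was 20.6%, 20.6% and 17.2% in those bins. In the lowest bin it was 2.17%. These shares are above the 14.2% of all expressed genes given earlier. The part of GC content in the guidance genes' values was not tested beyond this correction. DESeq2, another count test, called 16 guidance genes higher and 1 lower (6.25% and 4.51% of all genes tested with it). After the GC and length correction (the corrected fit below) edgeR called 13 higher and 1 lower (4.91% and 2.46% of all genes tested). The calls of these tests are named below for each gene.

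Other settings spread widely around those counts. Without a filter on low counts edgeR called 13 guidance genes higher and 1 lower (3.06% and 1.66% of all genes), and with the replicate number as a block 7 higher and 0 lower (2.30% and 0.774%). Without BSA replicate 1 the calls were 32 higher and 3 lower (25.3% and 22.6% of all genes), and without BSA replicate 2 they were 33 higher and 6 lower (27.3% and 30% of all genes). Without PA replicate 1 or PA replicate 2 no guidance gene was called (0.0864% and 0.0481% of all genes were called higher). At an unadjusted p under 0.05 the guidance genes numbered 37 without BSA replicate 1 and 42 without BSA replicate 2 (53.3% and 61.1% of all genes), and 15 without PA replicate 1 and 12 without PA replicate 2 (8.83% and 7.36% of all genes). No guidance gene was called by limma-voom on the counts (0.00573% of all genes higher) or by limma on log2 FPKM (0.00526% with either pseudocount and 0.00363% without a filter).

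**Figure D1:**
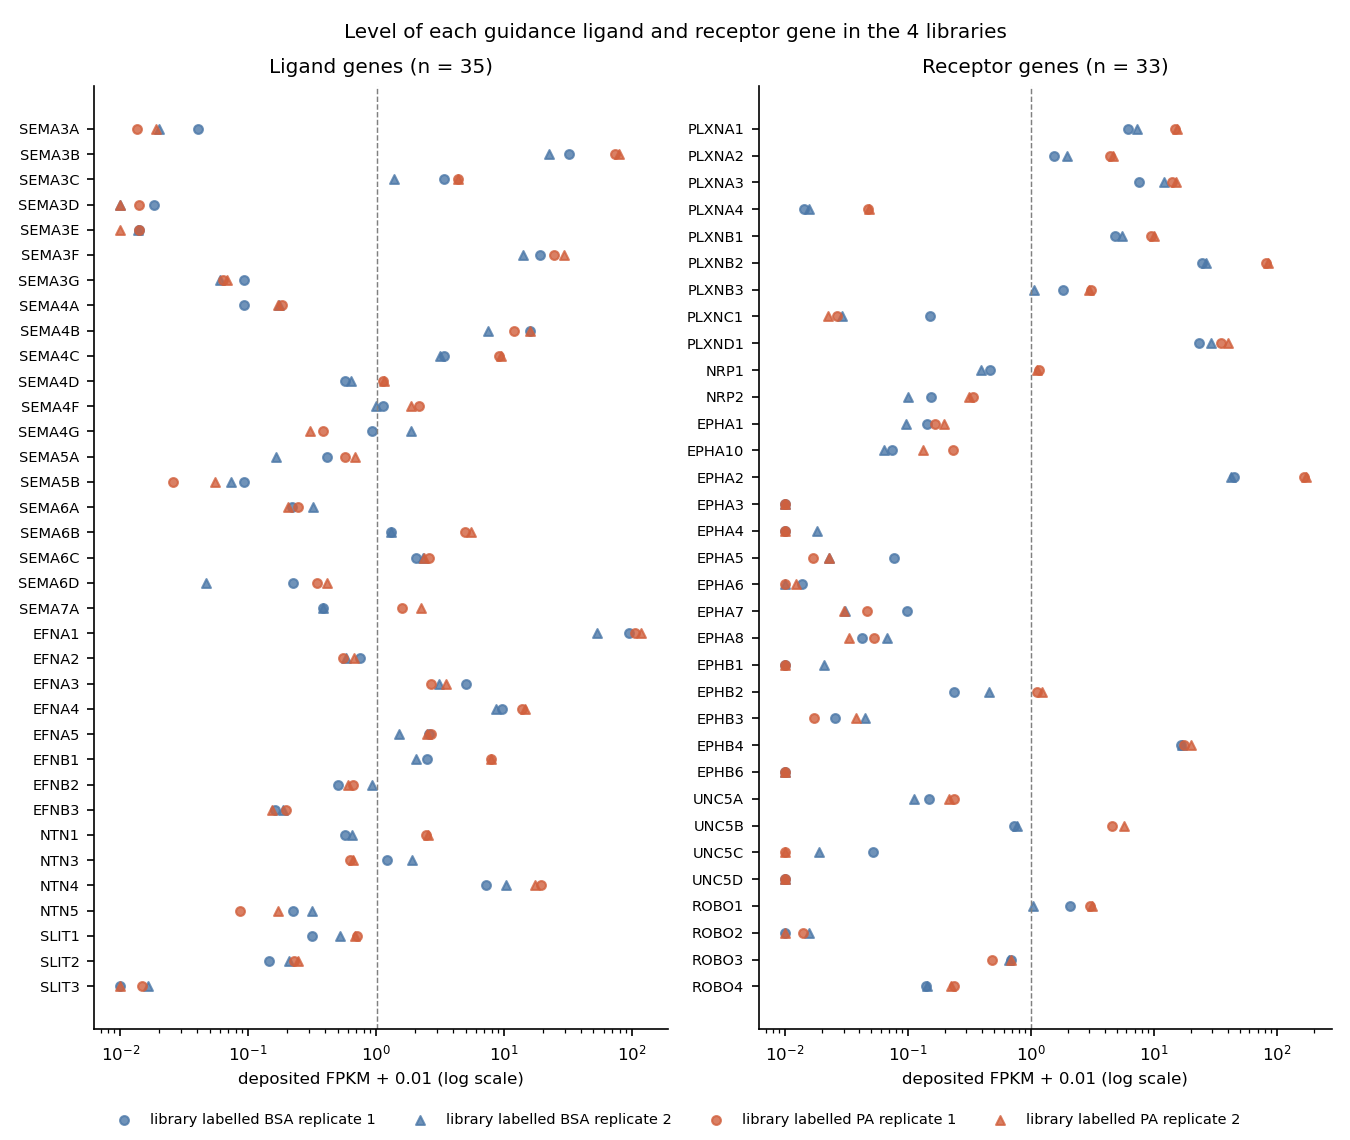
Deposited FPKM plus 0.01 on a log axis for the 35 ligand genes (left) and 33 receptor genes (right) in each of the 4 libraries, with BSA in blue, libraries labelled PA in orange, replicate 1 as circles and replicate 2 as triangles. The dashed line marks 1 FPKM, and values with no count sit at 0.01. EPHA2, PLXNB2 and SEMA3B are both abundant and separated by group, whereas most Eph receptors lie under 0.1 FPKM.

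The start-site sequences of 4 members with higher levels in the libraries labelled PA are shown beside that of EPHB4, whose level was close in all 4 libraries. Among expressed members with a single RefSeq start within 100 bases of the start in the deposited table, these 4 had the smallest edgeR p. Each run holds the 250 bases before the start on the gene's strand, 5′ to 3′, from RefSeq's GRCh38.p14 table, and capitals mark the GC box GGGCGG or its reverse complement.
EPHA2 (chr1:16156070-16156319, minus strand): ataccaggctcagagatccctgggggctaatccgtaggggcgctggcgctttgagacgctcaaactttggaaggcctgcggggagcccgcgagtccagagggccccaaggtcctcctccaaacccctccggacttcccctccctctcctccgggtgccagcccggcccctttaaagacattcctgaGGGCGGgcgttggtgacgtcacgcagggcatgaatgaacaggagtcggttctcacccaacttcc
EFNB1 (chrX:68828771-68829020, plus strand): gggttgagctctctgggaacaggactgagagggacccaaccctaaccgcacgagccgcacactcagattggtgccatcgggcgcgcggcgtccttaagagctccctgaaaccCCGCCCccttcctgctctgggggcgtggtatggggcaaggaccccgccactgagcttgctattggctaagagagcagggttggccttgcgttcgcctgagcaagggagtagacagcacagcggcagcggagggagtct
PLXNA2 (chr1:208244385-208244634, minus strand): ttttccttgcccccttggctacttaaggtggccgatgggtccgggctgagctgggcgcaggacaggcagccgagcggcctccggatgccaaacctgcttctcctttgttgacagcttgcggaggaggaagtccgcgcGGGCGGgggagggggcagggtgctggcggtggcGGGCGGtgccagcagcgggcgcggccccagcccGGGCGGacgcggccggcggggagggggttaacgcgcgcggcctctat
SEMA4F (chr2:74653997-74654246, plus strand): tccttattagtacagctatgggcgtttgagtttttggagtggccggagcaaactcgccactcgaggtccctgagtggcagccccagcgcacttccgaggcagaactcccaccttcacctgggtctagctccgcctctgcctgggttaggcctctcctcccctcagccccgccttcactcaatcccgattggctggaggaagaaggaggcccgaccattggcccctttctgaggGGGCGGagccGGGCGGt
EPHB4 (chr7:100827524-100827773, minus strand): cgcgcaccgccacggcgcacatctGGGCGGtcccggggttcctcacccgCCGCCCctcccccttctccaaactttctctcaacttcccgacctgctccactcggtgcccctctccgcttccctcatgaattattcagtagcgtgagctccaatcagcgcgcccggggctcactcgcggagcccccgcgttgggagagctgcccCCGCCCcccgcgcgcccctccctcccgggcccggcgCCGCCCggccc
The windows hold 1, 1, 3, 2 and 4 GC boxes in that order. None of the 5 holds TGANTCA (the AP-1 element), CACGTG (an E-box) or TATAAA, searched on both strands. GGGCGG is found in 42.6% of the 35116 start windows of the RefSeq table, TGANTCA in 6.57%, CACGTG in 6.34% and TATAAA in 10.7%. The 24 expressed ligand and receptor genes with an entry in that table have 37 windows, of which 28 (75.7%) hold a GC box. The 42.6% covers windows of expressed and unexpressed genes alike. No share was computed for expressed genes or for genes of like GC content, so the percentages come from unlike sets. A match is a run of letters only.

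Semaphorins were the largest ligand family, with 20 genes of which 9 were expressed. Their summed level was 69.0 ± 17.5 FPKM in BSA and 146 ± 10.2 in the libraries labelled PA (SD, n = 2). SEMA3B (ENSG00000012171, hg38 chromosome 3, 50267558 to 50277546, plus strand), a secreted semaphorin known as a tumour suppressor in lung cancer, was the most abundant. It had 32.2 and 22.4 FPKM in BSA and 74.1 and 78.6 in the libraries labelled PA. The groups lay well apart, with a log2 fold change of 1.56 ± 0.25 (SE; edgeR adjusted p = 0.0724), and DESeq2 called it higher. SEMA3B made up 39.6% of all semaphorin FPKM in each BSA library and 53.6% and 51.5% in the libraries labelled PA. Its neighbour SEMA3F, which signals through neuropilin 2 and starts upstream on the same strand, lies 78.5 kb away. For SEMA3F the values were 19.0 and 13.9 FPKM in BSA and 24.6 and 29.6 in the libraries labelled PA, a smaller separation (0.79 ± 0.25, adjusted p = 0.154). SEMA3C, another secreted semaphorin, had 3.41 and 1.37 FPKM in BSA and 4.36 and 4.38 in the libraries labelled PA. Its log2 fold change of 0.95 ± 0.48 rested on BSA replicate 2, being 1.74 without BSA replicate 1 and 0.47 without BSA replicate 2. SEMA3C is also the AT-rich exception among the expressed semaphorins (39.4% GC), and it was called higher after the GC and length correction (log2 fold change 1.51). SEMA3A, SEMA3D, SEMA3E and SEMA3G had between 0 and 12 counts per library.

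Class 4 semaphorins, which span the membrane, differed among themselves. SEMA4C, a ligand of plexin B2, stood at 3.404 and 3.13 FPKM in BSA and 9.10 and 9.42 in the libraries labelled PA. Its groups were tight and separate (log2 fold change 1.57 ± 0.24, adjusted p = 0.0689), and both DESeq2 and the corrected fit called it higher. SEMA4B, the most abundant gene of the class, had 15.8 and 7.46 FPKM in BSA and 11.97 and 15.8 in the libraries labelled PA. Its groups overlapped, and its log2 fold change of 0.34 ± 0.40 was 0.96 without BSA replicate 1 and -0.08 without BSA replicate 2. SEMA4D, the plexin B1 ligand also found on lymphocytes, had 0.557 and 0.622 FPKM in BSA and 1.12 and 1.15 in the libraries labelled PA (1.012 ± 0.30, adjusted p = 0.144). SEMA4F had 1.12 and 0.983 FPKM in BSA and 2.15 and 1.86 in the libraries labelled PA (1.00 ± 0.30, adjusted p = 0.148). Neither was called by DESeq2 or in the corrected fit. SEMA4G was the one semaphorin whose groups separated downward at an unadjusted p under 0.05. It had 0.922 and 1.85 FPKM in BSA and 0.375 and 0.294 in the libraries labelled PA, resting on 140, 311, 59 and 37 counts. Its log2 fold change was -1.98 ± 0.48 (adjusted p = 0.110; -1.34 without BSA replicate 2), and DESeq2 and the corrected fit called it lower.

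Of the remaining semaphorins, SEMA6B and SEMA7A showed the largest ratios. SEMA6B, a transmembrane ligand of class A plexins, had 1.29 and 1.30 FPKM in BSA and 4.96 and 5.51 in the libraries labelled PA. This gene was 4.25-fold higher (log2 fold change 2.09 ± 0.30, adjusted p = 0.0683). SEMA7A, which is tethered to the membrane by a lipid anchor and binds plexin C1 and integrins, had 0.377 and 0.374 FPKM in BSA and 1.58 and 2.24 in the libraries labelled PA. This gene was 5.34-fold higher on 41, 45, 178 and 202 counts (2.42 ± 0.37, adjusted p = 0.0689). DESeq2 and the corrected fit called both genes higher. SEMA6C lay close in all 4 libraries, between 2.05 and 2.59 FPKM (0.25 ± 0.30, and -0.09 in the corrected fit). SEMA4A, SEMA5A, SEMA5B, SEMA6A and SEMA6D were at or under 0.678 FPKM in each library. Among these SEMA5A had 142 and 60 counts in BSA and 206 and 198 in the libraries labelled PA, and the corrected fit called it higher.

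Plexins are the semaphorin receptors. All 7 expressed plexin genes lay higher in both libraries labelled PA than in either BSA library, as did 8 of the 9 expressed semaphorins. Of all expressed genes 31.1% did so. Summed plexin levels were 70.2 and 84.2 FPKM in BSA and 163 and 174 in the libraries labelled PA. PLXNB2 (ENSG00000196576, chromosome 22, 50274979 to 50307646, minus strand), the receptor for SEMA4C and for angiogenin, led this family. It had 24.9 and 26.8 FPKM in BSA and 81.9 and 85.4 in the libraries labelled PA. Replicates agreed closely and the groups did not touch, with a log2 fold change of 1.76 ± 0.21 (adjusted p = 0.0589), and DESeq2 and the corrected fit called it higher. PLXNB1, the SEMA4D receptor, had 4.87 and 5.52 FPKM in BSA and 9.56 and 10.1 in the libraries labelled PA (0.99 ± 0.22, adjusted p = 0.0961). It was called by DESeq2, and its log2 fold change was 0.55 in the corrected fit. PLXNB3 had 1.82 and 1.05 FPKM in BSA and 3.09 and 2.98 in the libraries labelled PA (1.16 ± 0.37, adjusted p = 0.158), with 1.59 and 0.85 when BSA replicate 1 or 2 was left out. As a class, the B plexins summed to 32.5 ± 1.29 FPKM in BSA and 96.5 ± 2.74 in the libraries labelled PA.

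PLXNA1 and PLXNA2, partners of neuropilins and of class 6 semaphorins, also lay apart. PLXNA1 had 6.21 and 7.30 FPKM in BSA and 14.8 and 15.3 in the libraries labelled PA (log2 fold change 1.23 ± 0.21, adjusted p = 0.0770). For PLXNA2 the levels were 1.52 and 1.97 FPKM in BSA and 4.36 and 4.63 in the libraries labelled PA (1.43 ± 0.27, adjusted p = 0.0825). DESeq2 called both, and the corrected fit called PLXNA1. PLXNA3 was less distinct, with 7.55 and 12.2 FPKM in BSA and 14.1 and 15.2 in the libraries labelled PA (0.63 ± 0.30, adjusted p = 0.265; 0.33 without BSA replicate 1 and 1.06 without BSA replicate 2). PLXND1, a receptor of developing vessels that binds SEMA3E, was the second most abundant plexin. It had 23.2 and 29.3 FPKM in BSA and 34.9 and 40.0 in the libraries labelled PA, a log2 fold change of 0.58 ± 0.24 (adjusted p = 0.223) that was 0.18 in the corrected fit. Its ligand gene SEMA3E had at most 1 count per library. PLXNA4 was under 0.1 FPKM, with 2, 3, 18 and 15 counts (2.91 ± 0.57, adjusted p = 0.0862), and the corrected fit called it higher. PLXNC1, the SEMA7A receptor, had 41 and 6 counts in BSA and 5 and 3 in the libraries labelled PA.

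Neuropilins, coreceptors for class 3 semaphorins and for VEGF, were low. NRP1 had 0.457 and 0.383 FPKM in BSA and 1.15 and 1.12 in the libraries labelled PA. The log2 fold change was 1.503 ± 0.30 (adjusted p = 0.0870) and 1.496 after correction for GC and length, and both DESeq2 and the corrected fit called the gene higher. NRP2 had 0.143 and 0.0908 FPKM in BSA and 0.330 and 0.303 in the libraries labelled PA (1.51 ± 0.38, adjusted p = 0.115), and DESeq2 called it. Class 3 semaphorins exceeded the neuropilins in summed FPKM by 91.3 and 79.7 times in BSA and by 69.8 and 79.2 times in the libraries labelled PA.

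**Figure D2:**
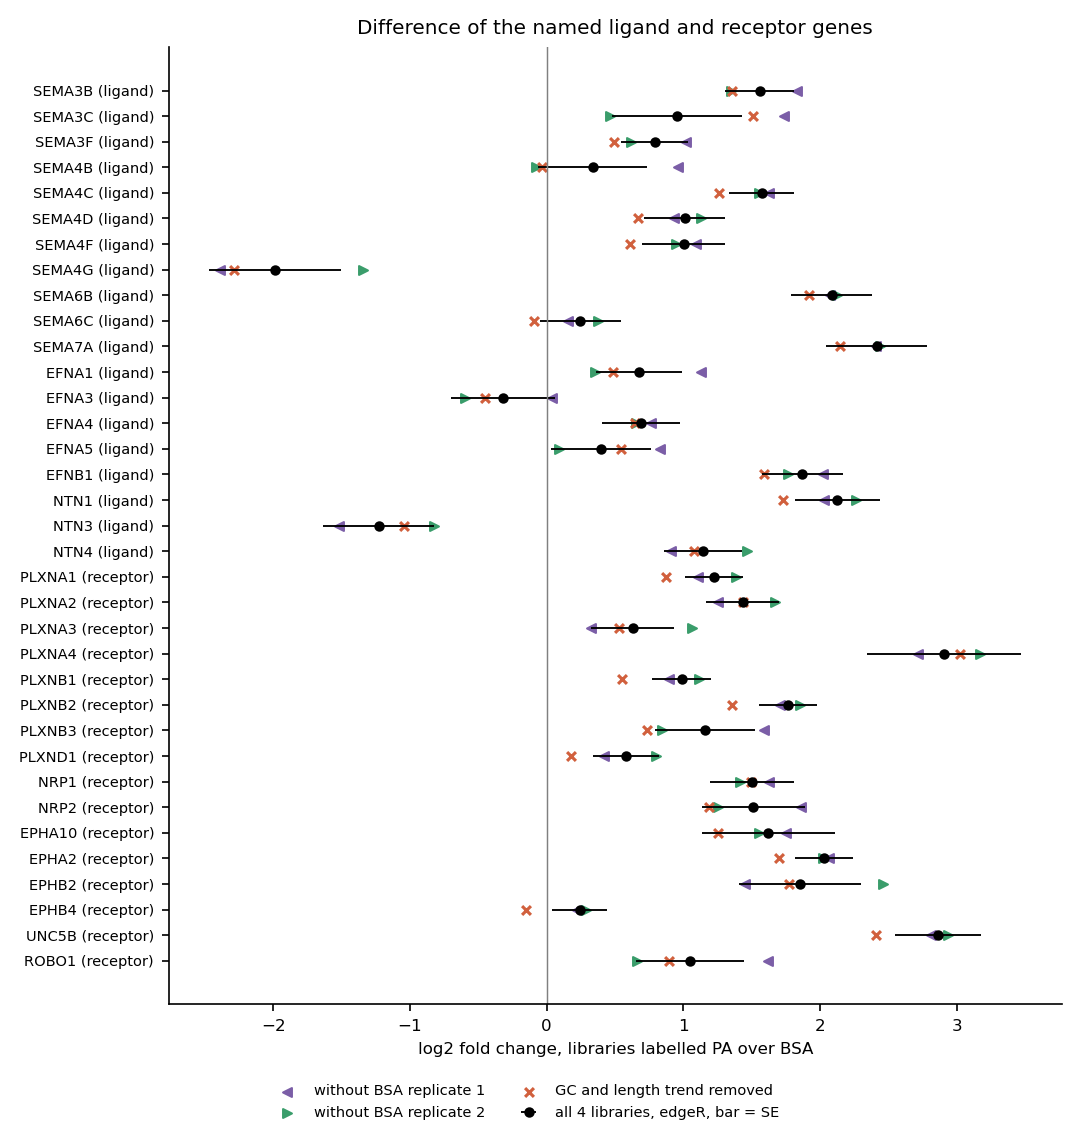
Log2 fold change of libraries labelled PA over BSA for the 35 ligand and receptor genes that were expressed or had an unadjusted edgeR p under 0.05, ordered by family. Black points are the fit to all 4 libraries with the SE as a bar, triangles leave out BSA replicate 1 or 2, and crosses carry the GC and length correction. PLXNA4, UNC5B, SEMA7A, SEMA6B, NTN1 and EPHA2 have the highest minimum over these 4 settings, from 2.72 for PLXNA4 to 1.70 for EPHA2, while SEMA4B, SEMA6C, EFNA3 and EPHB4 cross 0 under at least 1 of them.

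Eph receptors were dominated by a single gene. EPHA2 (ENSG00000142627, chromosome 1, 16124337 to 16156069, minus strand) encodes a receptor tyrosine kinase that is often abundant in carcinomas, including ovarian ones. It had 45.01 and 42.3 FPKM in BSA and 166 and 173 in the libraries labelled PA, on 5341, 5546, 20397 and 16961 counts. Replicates within each group were close and the groups were far apart, giving a log2 fold change of 2.03 ± 0.21 (4.08-fold, adjusted p = 0.0589). That value was 2.07 without BSA replicate 1, 2.02 without BSA replicate 2 and 1.70 after the GC and length correction, and DESeq2 and the corrected fit called the gene higher. EPHA2 took 99.1% or more of all EPHA FPKM in every library. Of the other EPHA genes, EPHA10, whose kinase lacks key catalytic residues, had 15 and 14 counts in BSA and 54 and 24 in the libraries labelled PA (1.62 ± 0.49, adjusted p = 0.148). EPHA1 was low, and EPHA3 to EPHA8 were under 0.1 FPKM.

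Among EPHB genes, EPHB4, the receptor of ephrin-B2 in vessels, was the abundant one and differed little. It had 16.6 and 16.9 FPKM in BSA and 17.6 and 20.03 in the libraries labelled PA (log2 fold change 0.24 ± 0.20, adjusted p = 0.474), and the value was -0.15 in the corrected fit. EPHB2 had 0.229 and 0.449 FPKM in BSA and 1.12 and 1.23 in the libraries labelled PA (1.85 ± 0.44, adjusted p = 0.107). DESeq2 called EPHB2 higher, and its value was 1.45 without BSA replicate 1 and 2.46 without BSA replicate 2. EPHB1, EPHB3 and EPHB6 had at most 5 counts per library. The share of EPHA2 in all Eph receptor FPKM was 72.3% and 70.6% in BSA and 89.6% and 88.9% in the libraries labelled PA. EPHB4 held 26.7% and 28.2% in BSA and 9.52% and 10.3% in the libraries labelled PA. These shares are taken within a library and do not depend on how libraries are scaled to each other.

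**Figure D3:**
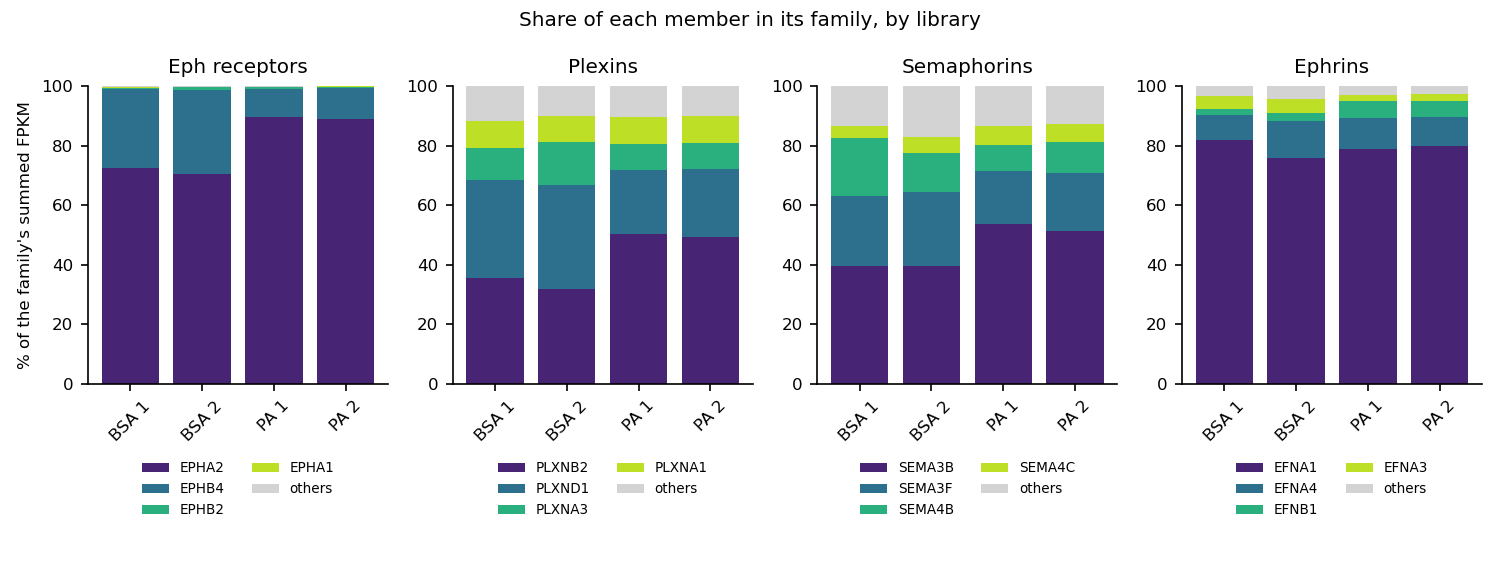
Share of each family's summed FPKM held by its 4 most abundant members in each of the 4 libraries, for Eph receptors, plexins, semaphorins and ephrins, with the rest in grey. EPHA2 is near 71.4% in BSA and 89.2% in the libraries labelled PA, and PLXNB2 near 33.6% and 49.8%, while the share of EFNA1 in the ephrins differs little between groups.

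Ephrin-A ligands, which are tethered by a lipid anchor and bind EPHA receptors, had smaller differences than EPHA2, and these were not set against it in a test. EFNA1, the main EPHA2 ligand and a TNF-induced gene in endothelium, was the most abundant guidance ligand. It had 94.8 and 53.7 FPKM in BSA and 106 and 119 in the libraries labelled PA. BSA replicate 1 came close to the libraries labelled PA, and the log2 fold change was 0.68 ± 0.31 (adjusted p = 0.254), 1.13 without BSA replicate 1 and 0.35 without BSA replicate 2. EFNA4 had 9.69 and 8.71 FPKM in BSA and 13.8 and 14.5 in the libraries labelled PA (0.69 ± 0.29, adjusted p = 0.224). EFNA3 overlapped between groups, with 4.99 and 3.12 FPKM in BSA and 2.67 and 3.49 in the libraries labelled PA. EFNA5 had 2.60 and 1.51 FPKM in BSA and 2.67 and 2.47 in the libraries labelled PA (0.40 ± 0.37, adjusted p = 0.516), a difference of 0.83 without BSA replicate 1 and 0.09 without BSA replicate 2. EFNA1, EFNA3 and EFNA4 lie in a row on the plus strand of chromosome 1, from 155063737 to 155134899. EFNA3 and EFNA4 overlap the readthrough gene EFNA4-EFNA3, which had 1 count in all, so reads of the shared exons may have been assigned among them. None of the ephrin-A genes was called by DESeq2 or in the corrected fit.

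The proportion of ligand to receptor lay apart between the groups for the ephrins and netrins and overlapped for the semaphorins. Semaphorin FPKM was 1.16 and 0.672 of plexin FPKM in BSA and 0.850 and 0.880 of it in the libraries labelled PA. Netrin FPKM exceeded UNC5 FPKM 10.3 and 15.2 times in BSA and 4.78 and 3.54 times in the libraries labelled PA. Most of that netrin sum was NTN4, with 78.4% in each BSA library and 86.2% and 83.8% in the libraries labelled PA. NTN1 alone lay under UNC5B in each library. It had 0.560 and 0.639 FPKM against 0.714 and 0.756 in BSA, and 2.45 and 2.55 against 4.53 and 5.66 in the libraries labelled PA. Ephrin-A FPKM exceeded EPHA FPKM 2.48 and 1.59 times in BSA, and was 0.753 and 0.808 of it in the libraries labelled PA. With 2 libraries a group, an exact two-sided permutation test cannot give a p below 0.333, so no test is given for such ratios. EFNB1, a transmembrane ephrin that also signals into the cell that bears it, had 2.49 and 2.02 FPKM in BSA and 7.86 and 7.86 in the libraries labelled PA. Its log2 fold change was 1.87 ± 0.30 (3.66-fold, adjusted p = 0.0708), and DESeq2 and the corrected fit called it higher. EFNB2 had 71 and 145 counts in BSA and 97 and 71 in the libraries labelled PA, and EFNB3 had between 11 and 18 per library. Ephrin-B FPKM was 0.186 and 0.179 of EPHB FPKM in BSA and 0.464 and 0.404 of it in the libraries labelled PA.

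**Figure D4:**
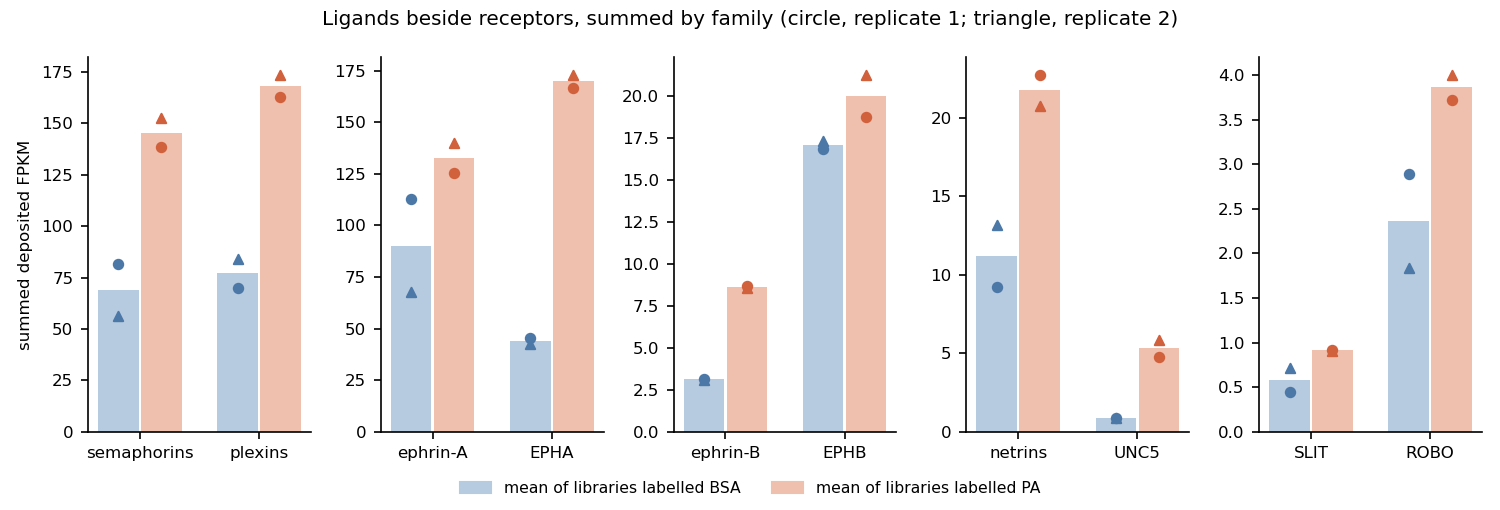
Summed FPKM of ligand and receptor families in each library (points) with the group mean (bars), for semaphorins and plexins, ephrin-A and EPHA, ephrin-B and EPHB, netrins and UNC5, and SLIT and ROBO genes. EPHA genes sum to 43.9 FPKM in BSA and 170 in the libraries labelled PA and pass the ephrin-A sum, whereas EPHB genes sum to 17.1 and 20.03.

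Netrins and their UNC5 receptors held the largest ratio among the expressed members. UNC5B (ENSG00000107731, chromosome 10, 71212570 to 71302864, plus strand) is a netrin receptor known as a dependence receptor and a p53 target. It had 0.714 and 0.756 FPKM in BSA and 4.53 and 5.66 in the libraries labelled PA, on 140, 164, 919 and 919 counts. The groups lay far apart, with a log2 fold change of 2.86 ± 0.31 (7.28-fold, adjusted p = 0.0589) that was 2.41 in the corrected fit and, over all 15 alternatives, ran from 1.81 with limma on log2 FPKM at pseudocount 1 to 3.06 without PA replicate 1. NTN1, its ligand, had 0.560 and 0.639 FPKM in BSA and 2.45 and 2.55 in the libraries labelled PA (2.13 ± 0.31, 4.37-fold, adjusted p = 0.0689). DESeq2 and the corrected fit called both genes higher. NTN4, a netrin of basement membranes that binds laminin, was the most abundant netrin. Its levels were 7.22 and 10.3 FPKM in BSA and 19.6 and 17.4 in the libraries labelled PA (1.14 ± 0.28, adjusted p = 0.112), and DESeq2 called it. NTN3 went the other way, with 1.21 and 1.90 FPKM in BSA and 0.616 and 0.655 in the libraries labelled PA. Its log2 fold change of -1.23 ± 0.41 (adjusted p = 0.169) was -0.82 without BSA replicate 2, and neither DESeq2 nor the corrected fit called it. NTN5 had 30 counts or fewer in each library. Of the other UNC5 genes, UNC5A had between 14 and 29 counts, and UNC5C had 13 and 3 in BSA and 0 in both libraries labelled PA. The netrin coreceptor gene NEO1 (neogenin) had 1.95 and 1.16 FPKM in BSA and 2.65 and 3.22 in the libraries labelled PA (0.99 ± 0.36, adjusted p = 0.192). The netrin receptor gene DCC had no row under that symbol in the deposited table, so its level is not known here.

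Of the SLIT and ROBO genes only ROBO1 was expressed. ROBO1, a SLIT receptor, had 2.08 and 1.04 FPKM in BSA and 3.01 and 3.11 in the libraries labelled PA. Its log2 fold change of 1.05 ± 0.40 (adjusted p = 0.199) was 1.62 without BSA replicate 1 and 0.66 without BSA replicate 2. ROBO3 had between 99 and 146 counts per library and ROBO4, an endothelial receptor, between 25 and 45. SLIT1 had 80 and 147 counts in BSA and 189 and 146 in the libraries labelled PA, SLIT2 between 43 and 72, and SLIT3 and ROBO2 at most 3.

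Of the 12 antisense rows 4 were expressed, and the groups overlapped in all of these except SEMA3B-AS1, which was lower. EPHA2-AS1, which overlaps the start of EPHA2 on the other strand, had 1.51 and 1.70 FPKM in BSA and 1.59 and 1.61 in the libraries labelled PA (log2 fold change 0.06 ± 0.33, adjusted p = 0.920). SEMA3B-AS1 had 2.58 and 3.67 FPKM in BSA and 2.06 and 1.95 in the libraries labelled PA (-0.58 ± 0.40, adjusted p = 0.403). PLXNB3-AS1 lay between 1.57 and 1.83 FPKM and SEMA3F-AS1 between 0.781 and 1.87. SEMA6A-AS1 was low, with 23 and 57 counts in BSA and 12 and 3 in the libraries labelled PA (-2.18 ± 0.74, adjusted p = 0.175), and its value was -1.42 without BSA replicate 2 and -3.22 without PA replicate 1. The use of strand in counting is not given in the sources used here, so reads in the overlaps cannot be assigned with certainty. Of the 2 protein-coding rows taken in by name alone, UNC50 had 16.4 and 10.6 FPKM in BSA and 9.93 and 6.62 in the libraries labelled PA (-0.63 ± 0.36, adjusted p = 0.329), and UNC5CL had between 20 and 62 counts.

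Genes that work with these families were read from a list of coreceptors and intracellular effectors, of which 70 of 74 names were in the table and 59 were tested. At an unadjusted p under 0.05, 11 were higher and 1 lower in the libraries labelled PA (13.1% and 11.2% of all genes tested), with a median log2 fold change of 0.22. L1CAM, an adhesion molecule and neuropilin partner, had 34.8 and 39.3 FPKM in BSA and 116 and 118 in the libraries labelled PA (1.73 ± 0.23, adjusted p = 0.0617). GPC1, a heparan sulfate proteoglycan that binds SLIT proteins, had 6.02 and 6.34 FPKM in BSA and 18.03 and 19.9 in the libraries labelled PA (1.69 ± 0.21, adjusted p = 0.0604). RND1, a small GTPase that binds plexins, had 0.884 and 2.01 FPKM in BSA and 5.22 and 6.01 in the libraries labelled PA (2.01 ± 0.50, adjusted p = 0.113; 1.54 without BSA replicate 1 and 2.77 without BSA replicate 2). MICAL3, of the family of redox enzymes downstream of plexins, had 2.78 and 3.11 FPKM in BSA and 5.69 and 5.83 in the libraries labelled PA (1.04 ± 0.21, adjusted p = 0.0868). Both DESeq2 and the corrected fit called these 4 genes higher. ERBB2, MICAL1, SDC3 and ITSN1, all expressed, had log2 fold changes from 0.61 to 0.91. KALRN and SRGAP3 had larger values, 1.98 and 2.58, but lay under 0.1 FPKM on average. KALRN had 29 and 34 counts in BSA and 107 and 101 in the libraries labelled PA. SRGAP3 had 14 and 13 counts in BSA and 49 and 83 in the libraries labelled PA, and its log2 fold change was 1.95 without PA replicate 2. SOS1 was the lower gene (-1.35 ± 0.49, adjusted p = 0.189), but its value was -0.52 without BSA replicate 1 and -0.76 in the corrected fit. Semaphorin and Eph receptor genes are also used by endothelial cells, so the 8 endothelial markers were read beside them. Their summed FPKM was 19.7 and 20.1 in BSA and 36.5 and 41.3 in the libraries labelled PA, and ESAM made up nearly all of it. Of the 4 endothelial markers tested, ESAM, CDH5 and PECAM1 were higher at an unadjusted p under 0.05 and 0 were lower. Of all genes tested 13.1% were higher and 11.2% lower by that rule. Marker lists of other cell types were read in the same way. Of 4 neural markers tested 0 were higher and 0 lower, and of 3 fibroblast markers 0 and 0. Of 3 immune markers tested 1 was higher and 1 lower. PECAM1 had 3, 0, 21 and 16 counts, CDH5 4, 5, 62 and 32, and VWF 1, 12, 17 and 26, with the BSA libraries first. CLDN5 had 8, 29, 8 and 2 counts, and KDR, TEK and TIE1 had at most 2 in any library. The part of these markers in the guidance genes' differences was not tested.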

How the data were processed

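RNA-seq of 4 TOV-112D libraries was read from one table of the whole series, which pairs gene symbols with Ensembl identifiers and hg38 coordinates. Per the file headers, the authors deposited a read count and an FPKM value for each gene and library. HISAT2, StringTie and SAMtools with hg38 are named in the submitters' processing notes, without roles or versions. Annotation release, strand setting and treatment of reads shared by paralogs were not given in the sources used here.

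Counts were tested with edgeR 4.0.16 (TMM factors, filterByExpr, quasi-likelihood test, Benjamini-Hochberg over 17449 genes; every adjusted p in the report without another name is this test), in R 4.3.3. The fit was tested on simulated counts with planted changes. These were drawn without a GC-dependent difference between the BSA libraries, so that feature was not covered. Alternatives used DESeq2 1.42.0, limma 3.58.1 (voom, and log2 of FPKM plus 1 or 0.1), other factors and filters, a replicate block, single libraries left out, and a loess correction (span 0.3) for GC content and length of GENCODE 29 transcripts, held by 16596 of the tested genes. Members with a mean of at least 1 FPKM, and of the rest those with an unadjusted edgeR p under 0.05, are given with each library's values. SEMA5A and low members outside that rule were named after their values were seen. The members and lists were chosen with earlier results of these data known. Start windows came from RefSeq, where 71 of 83 members had an entry.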

Additional observations from a re-analysis of the deposited data

How the results depend on the processing

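The number of genes called at an adjusted p under 0.05 depended on the setting. It was 0 over all genes in the edgeR fit of the report and with RLE factors, upper-quartile factors or a filter at 1 CPM. It was 1302 with no filter, 1842 with DESeq2, 1224 after the GC and length correction, 1 with limma-voom and 1 in each fit of limma to log2 FPKM. Guidance genes called numbered 14 with no filter, 17 with DESeq2, 14 after the correction and 0 in the others named. Leaving out 1 library gave from 9 to 10467 genes in all and from 0 to 39 guidance genes, the upper ends without BSA replicate 2 and the lower ones without a PA replicate. The arm left with 1 library is then assumed to vary like the other group. Guidance genes at an unadjusted p under 0.05 numbered 26, and from 12 (without PA replicate 2, where 7.36% of all genes passed) to 42 (without BSA replicate 2, where 61.1% passed) with a library left out. With the replicate block 537 genes and 7 guidance genes were called. Over the genes tested, the log2 ratio of replicate 2 to 1 in BSA and that in the libraries labelled PA had a correlation of 0.0084. A single such ratio in each group cannot show whether samples were paired. The replicate numbers are not taken to pair them. The causes of these shifts were not tested.

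Of 611 single-gene values under 15 settings, 479 kept direction and side of the threshold, 116 kept direction and passed it, and 16 in 7 genes changed sign. SEMA3F-AS1 (-0.12 in the report's fit) was 0.024 with limma-voom, 0.020 with the replicate block, and from -0.61 to 0.69 with a library left out. EPHA2-AS1 (0.06) was -0.0032 with limma on log2 FPKM at pseudocount 1, filtered or not, -0.0041 at pseudocount 0.1, and from -0.027 to 0.19 with a library left out. PLXNB3-AS1 (0.06) was -0.0096, -0.014 and from -0.013 to 0.17 in the same fits. SEMA4B was -0.035 after the GC and length correction and from -0.081 to 0.96 with a library left out. SEMA6C was -0.094 and EPHB4 -0.15 after that correction. EFNA3 ran from -0.59 to 0.043 with a library left out. Each group has 2 libraries, and members with few counts are limited by depth.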
